A study of Mus musculus with 6 samples.

Results

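The genes described here are 8 annexins (Anxa1, Anxa2, Anxa3, Anxa4, Anxa5, Anxa6, Anxa7 and Anxa11) and 2 genes of the S100 family whose proteins bind annexins, S100a6 and S100a10. They were taken by gene symbol, and their RefSeq transcripts matched 12 of the 32025 rows of the deposited array table, or 10 of its 20263 named genes. The genes were chosen by family and by their control level and difference between miR-128 and miR-Control on these same arrays, so those levels and differences are given as a description. The cells were neural stem cells of CD-1 albino mice, taken at embryonic stage E14.5 and grown as floating neurospheres under conditions that keep them dividing. Cells of 1 group were nucleofected (transfected by an electric pulse) with a mimic of the microRNA miR-128 and cells of the other with a control RNA, miR-Control, and total RNA was taken 72 h later. Each group had 3 biological replicates with 1 exon array each, 6 arrays in all. Both groups were thus nucleofected, and the study states that these cells do not normally express miR-128. The sources used here do not say which embryos a replicate came from, what sequence miR-Control has, which arm the mimic copies or what share of cells took it up.

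Annexins are cytosolic proteins that bind acidic phospholipids of membranes when calcium rises, through a conserved core of repeats. They take part in endocytosis, exocytosis, membrane repair and the organisation of lipid domains, and each has an N-terminal stretch of its own that sets its partners. S100 proteins are small EF-hand proteins that form dimers and dock onto such N-terminal stretches. The best known complex joins Anxa2 to S100a10, also called p11, which unlike other S100 proteins does not need calcium to bind, and which brings ion channels and plasminogen activators to the cell surface.

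The agent of the study is shown first, since a microRNA recognises transcripts mainly through its seed, bases 2 to 8 from its 5′ end, here in capitals. RefSeq's table for GRCm38.p6 lists 2 mouse hairpins, which give the same 3p strand and different 5p strands. The 3p strand lies at chr1:128202404-128202424 on the plus strand in Mir128-1 and at chr9:112118644-112118664 on the minus strand in Mir128-2.
mmu-miR-128-3p: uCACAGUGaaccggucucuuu
mmu-miR-128-1-5p: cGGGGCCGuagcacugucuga
mmu-miR-128-2-5p: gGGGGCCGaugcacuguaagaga
No other mature microRNA in that table had the 3p seed, while both 5p strands carried 1 seed, which differs from that of the 3p strand. Whether the transcripts of the 10 genes hold a match to either seed was not analysed here.

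Of the 10 genes, Anxa2 stood lowest and Anxa5 highest in the comparison of miR-128 with miR-Control, and the other 8 differed by 0.10 or less on the log2 scale. Anxa2 was 1.72-fold lower with miR-128 and Anxa5 1.32-fold higher, and only in these 2 of the 10 did the 3 arrays of one group lie wholly beyond those of the other. The median log2 fold change of the 10 was -0.02, against 0.02 over all named genes. Positive values were found in 5 of the 10, where 56.2% of all named genes were positive. All values below are log2 expression values made with RMA (a method that corrects background, equalises arrays and summarises the probes of a transcript), and a difference of 1 is 2-fold. RMA tends to give fold changes smaller than true ratios.

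**Figure D1:**
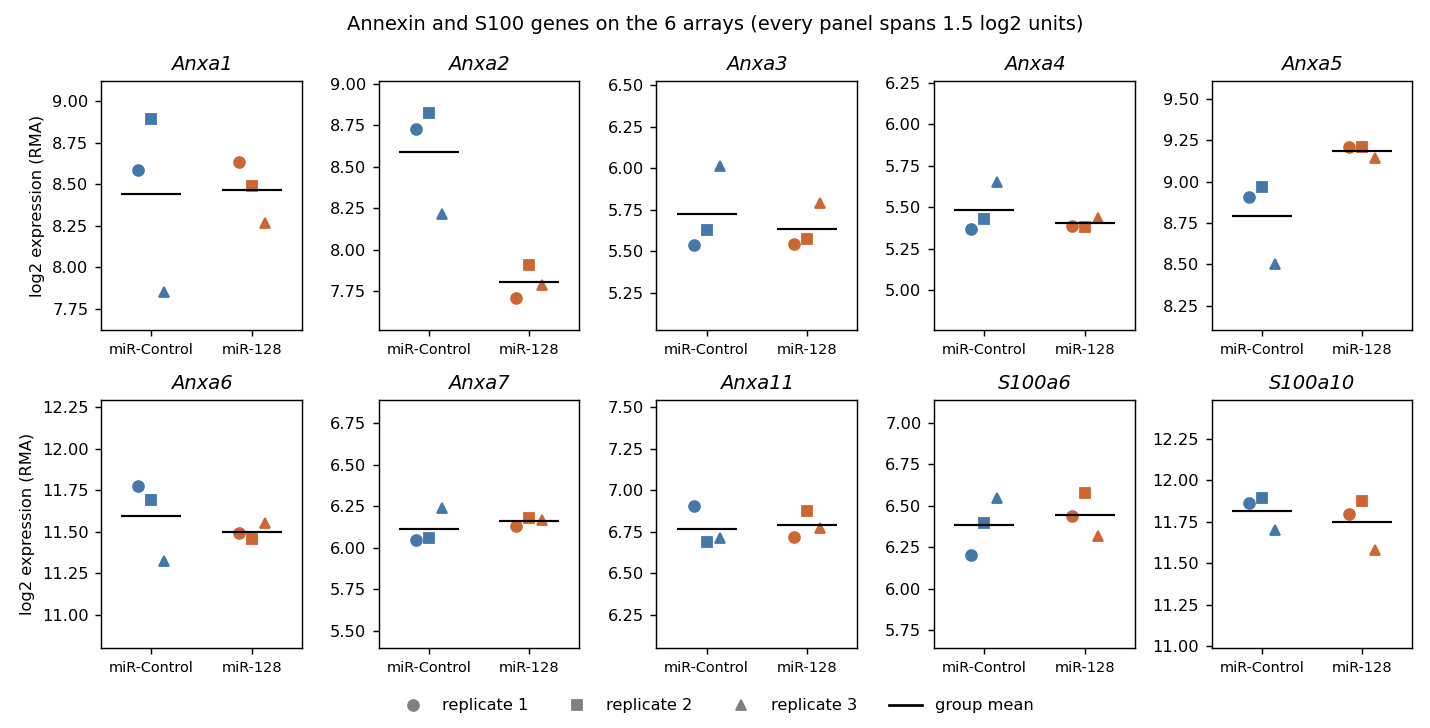
Log2 expression of the 10 genes on each of the 6 arrays, miR-Control in blue and miR-128 in orange, with a marker shape for each replicate number and a line at the group mean of 3 arrays. Every panel spans 1.5 log2 units; the groups are apart only for Anxa2 and Anxa5, and miR-Control replicate 3 (blue triangle) is the lowest control for Anxa1, Anxa2, Anxa5, Anxa6 and S100a10.

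Anxa2, a peripheral membrane protein of endosomes and the cell cortex, read 8.73, 8.82 and 8.21 on the control arrays, in the order of the replicate numbers 1 to 3, and 7.71, 7.91 and 7.79 on the miR-128 arrays, in the same order. The lowest control lay above the highest miR-128 array. Group means were 8.59 ± 0.33 and 7.80 ± 0.10 (SD, n = 3), and the limma fit over all rows gave a log2 fold change of -0.79 (SE 0.16, 95% interval -1.16 to -0.42). Of all named genes 0.192% had a fold change as low or lower.

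S100a10, the partner of Anxa2, read 11.86, 11.89 and 11.70 on the control arrays and 11.79, 11.87 and 11.58 on the miR-128 arrays. The groups overlapped, and the lowest value was that of miR-128 replicate 3. Its log2 fold change was -0.07 (SE 0.12, 95% interval -0.33 to 0.20), an interval that leaves out a difference as large as that of Anxa2. Within each array the Anxa2 value minus the S100a10 value was -3.13, -3.07 and -3.49 on the control arrays and -4.08, -3.96 and -3.79 on the miR-128 arrays, so that no miR-128 array reached a control. The difference between the groups was thus unequal for the 2 transcripts of the complex, by -0.72. Since their probes differ, the gap on 1 array is not a ratio of transcripts.

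Anxa5, which binds phosphatidylserine and is used as a probe for dying cells, read 8.90, 8.96 and 8.50 on the control arrays and 9.21, 9.21 and 9.14 on the miR-128 arrays. Every miR-128 array lay above every control, and the miR-128 arrays were close together. Means were 8.79 ± 0.25 and 9.19 ± 0.04 (SD, n = 3), with a log2 fold change of 0.40 (SE 0.14, 95% interval 0.09 to 0.70). Of all named genes 1.7% had a fold change as high or higher. The Anxa2 value minus the Anxa5 value was between -0.29 and -0.14 on the control arrays. On the miR-128 arrays it was between -1.50 and -1.30, a group difference of -1.18 on the log2 scale. This is the log2 fold change of Anxa2 minus that of Anxa5, the lowest and the highest of the genes described. The widening follows from picking these 2 annexins, so nothing further is read from it.

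Anxa1, the glucocorticoid-regulated annexin that signals through formyl peptide receptors, was the most variable of the 10 among controls. It read 8.58, 8.89 and 7.85 on the control arrays and 8.63, 8.49 and 8.27 on the miR-128 arrays, so the miR-128 arrays lay inside the range of the controls. The log2 fold change was 0.02, with a 95% interval of -0.52 to 0.57, the widest of the 10.

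Anxa6, whose core holds more repeats than that of any other annexin, read 11.77, 11.69 and 11.32 on the control arrays and 11.49, 11.45 and 11.55 on the miR-128 arrays. The miR-128 arrays lay between the third control and the other two, and the log2 fold change was -0.10 (SE 0.13, 95% interval -0.40 to 0.21). The gene has a pair of transcript rows with identical values, which therefore count once.

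The other annexins had low values. Anxa3 lay between 5.54 and 6.01 on the 6 arrays and Anxa4, an annexin of epithelial secretory membranes, between 5.37 and 5.65, with log2 fold changes of -0.09 and -0.08. Anxa7, which binds the calcium sensor sorcin, had 2 rows, with control means of 6.12 and 5.72 and log2 fold changes of 0.04 and 0.02, so its transcripts gave like values. Anxa11, a carrier of RNA granules on lysosomes and a partner of S100a6, lay between 6.69 and 6.90 with a log2 fold change of 0.02.

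S100a6, also called calcyclin, read 6.20, 6.39 and 6.55 on the control arrays and 6.44, 6.58 and 6.32 on the miR-128 arrays. The groups overlapped, with a log2 fold change of 0.06 (95% interval -0.22 to 0.35).

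As to baseline level, 5 of the 10 genes lay above the table's median level of 7.46, namely Anxa1, Anxa2, Anxa5, Anxa6 and S100a10, and 5 below it. Of all 20263 named genes, 10937 lay above it. Control means were 11.82 ± 0.10 for S100a10, 11.60 ± 0.24 for Anxa6, 8.79 ± 0.25 for Anxa5, 8.59 ± 0.33 for Anxa2 and 8.44 ± 0.53 for Anxa1 (SD, n = 3). Below the median, control means ran from 5.48 ± 0.15 for Anxa4 to 6.77 ± 0.12 for Anxa11. Rows are measured by different probes, no detection call was used, and values of the lower 5 may lie near background, so these levels do not rank the amounts of transcript.

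In the limma test over all 32025 rows, with Benjamini-Hochberg adjustment, 0 rows passed an adjusted p of 0.05 (0.0%), the lowest adjusted p in the table was 0.192, and 2291 rows had an unadjusted p under 0.05. Among the 10 genes the adjusted p ran from 0.340 for Anxa2 to 0.997 for Anxa1, and Anxa5 had 0.585 in that fit. An unadjusted p under 0.05 in limma was found for 2 of 10, where 7.13% of all named genes had one: Anxa2 on the lower side (3.39% of all named genes) and Anxa5 on the higher side (3.74%). Groups did not overlap for 1 of 10 genes on the lower side (5.27% of all named genes) and for 1 of 10 on the higher side (6.87%). Since the list was chosen with this contrast in view, nothing is read from these shares. With limma's array weights, which gave miR-Control replicate 3 a weight of 0.279 against 0.754 to 2.12 for the other arrays, Anxa2 passed at -0.92 (adjusted p = 0.0453), 1 of 24 rows that did. Over the other alternatives its adjusted p ran from 0.113 to 1.00.

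**Figure D2:**
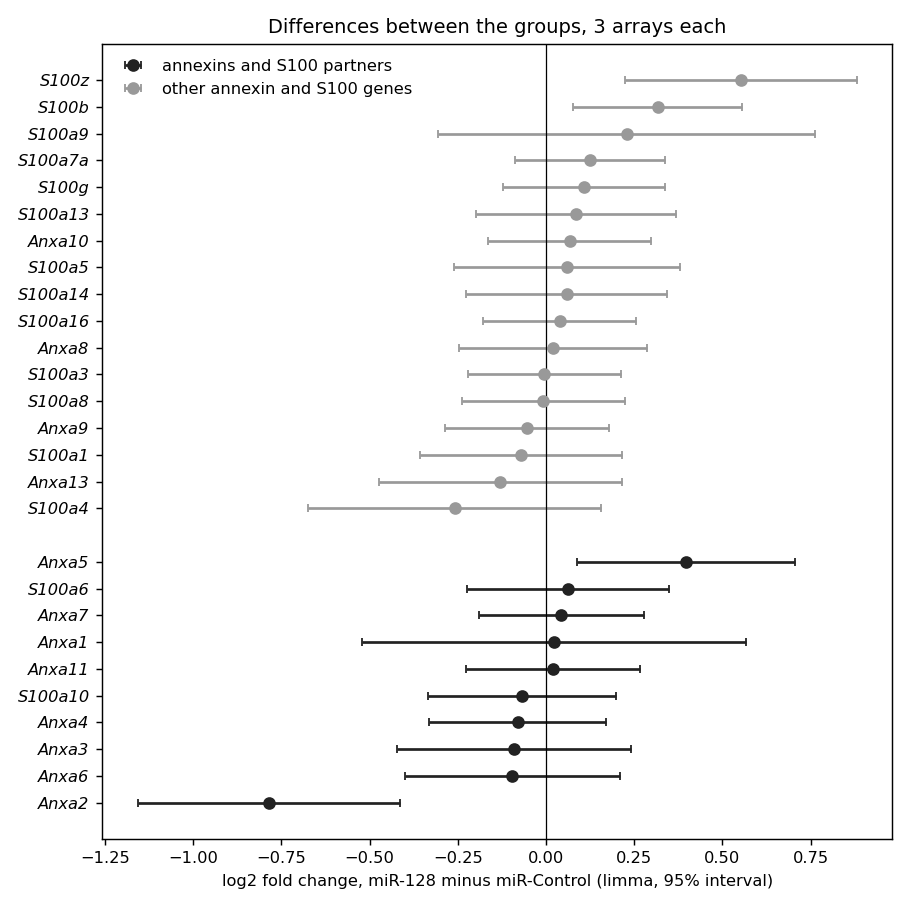
Log2 fold change, miR-128 minus miR-Control, with the 95% interval of the limma fit, for the 10 genes (black) and for the other annexin and S100 genes with a row (grey), 3 arrays a group. Anxa2 at -0.79 and Anxa5 at 0.40 are those of the 10 whose interval leaves out 0; among the other genes these are S100z at 0.55 and S100b at 0.32.

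One array bears on these values. Over the whole table miR-Control replicate 3 stood apart, at 42.5 on the first principal component (35.4% of the variance) where the other arrays lay between -18.7 and -0.23, and its interquartile range of 2.87 was the narrowest, the others having 2.98 to 3.22. Among named genes above the median level it was lower than both other controls in 56.1%, and among those not above it, higher than both in 68.8%. The 10 genes followed the same pattern: all 5 above the median were lower on this array than on both other controls, and 4 of the 5 below it were higher, Anxa11 lying between. The largest gaps to the mean of the other two controls were -0.89 for Anxa1 and -0.56 for Anxa2.

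**Figure D3:**
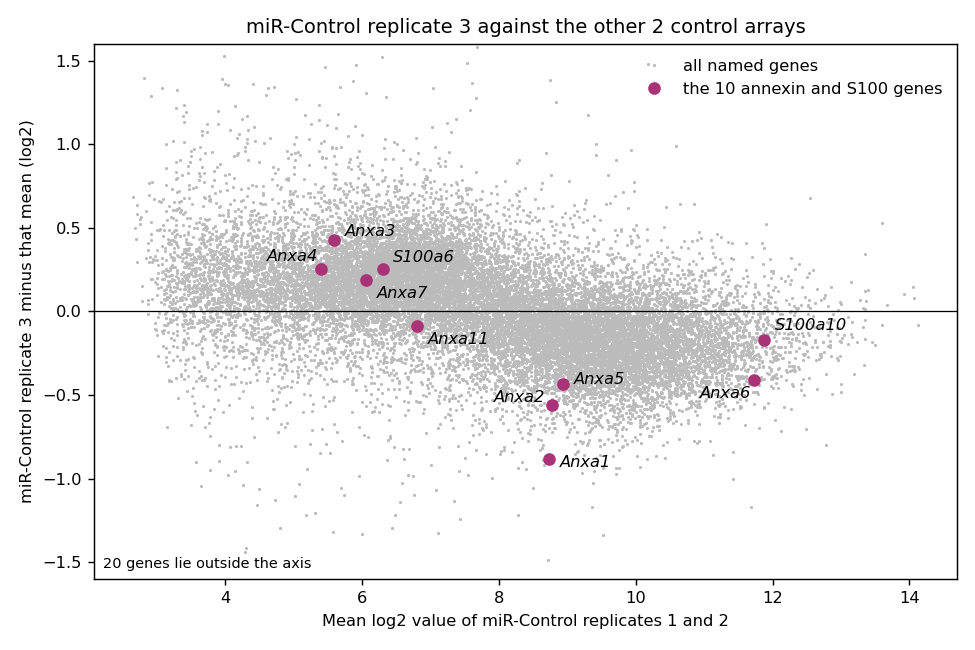
Value of miR-Control replicate 3 minus the mean of miR-Control replicates 1 and 2 (log2), against that mean, for all named genes (grey) and the 10 genes (purple). The 5 genes above the table's median level lie below 0, down to -0.89 for Anxa1, and 4 of the 5 lower ones lie above 0; 20 other genes fall outside the axis.

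Without miR-Control replicate 3 the log2 fold change of Anxa2 was -0.97 (SE 0.10) and that of Anxa5 was 0.25 (SE 0.09), each with its sign kept. Anxa6 went to -0.23 (95% interval -0.45 to -0.02) and Anxa1 turned to -0.27 (95% interval -0.62 to 0.07). Anxa3 turned to 0.05, Anxa4 to 0.00438 and Anxa11 to -0.00831, while S100a10 was at -0.13 and S100a6 at 0.15. Without that array 3 of the 10 (Anxa2, Anxa5 and Anxa6) had an unadjusted p under 0.05 in limma, where 12.5% of all named genes had one, and none passed after adjustment (lowest adjusted p = 0.242).

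**Figure D4:**
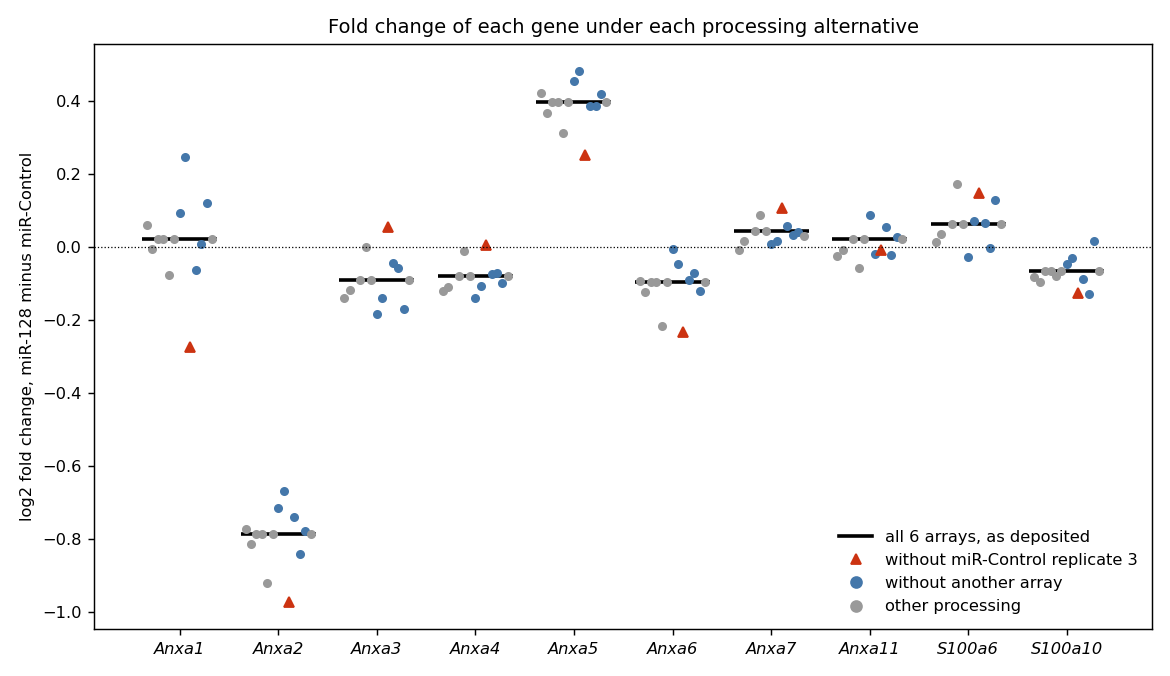
Log2 fold change of each of the 10 genes with all 6 arrays (black line), without miR-Control replicate 3 (red triangle), without another array (blue) and under the other processing alternatives (grey). Anxa2 stays between -0.97 and -0.67 and Anxa5 between 0.25 and 0.48, Anxa6 stays below 0, and each of the other 7 genes lies on both sides of 0.

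Of the other annexin and S100 genes 17 of 18 had a row, S100a11 being the one with no match. Their median log2 fold change was 0.06, with 11 higher and 6 lower, and 0 passed the adjusted threshold in limma. An unadjusted p under 0.05 was found for 2, both higher, where 3.74% of named genes had one on the higher side. Groups were apart for 3 of the 17, all higher, where 6.87% of named genes were apart on that side. S100b, made by astrocytes and by oligodendrocyte progenitors, read 8.05, 8.27 and 8.19 on the control arrays and 8.42, 8.50 and 8.54 on the miR-128 arrays, so the groups were apart, with a log2 fold change of 0.32 (SE 0.11, adjusted p = 0.578 in limma). S100z read 4.86, 5.05 and 4.50 on the control arrays and 5.38, 5.39 and 5.30 on the miR-128 arrays, a log2 fold change of 0.55 (SE 0.14, adjusted p = 0.454 in limma) at the low end of the scale. Leaving out miR-Control replicate 3 gave 0.33 for S100b and 0.40 for S100z.

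The other 4 annexins, Anxa8, Anxa9, Anxa10 and Anxa13, all lay below the table's median level and had overlapping groups. Anxa13 at -0.13 and Anxa10 at 0.07 differed most. Among the S100 genes only S100a13, S100a16 and S100b lay above that level. S100a13 had a control mean of 8.48 and a log2 fold change of 0.08, and S100a16 a control mean of 8.20 and a log2 fold change of 0.04. S100a4, a gene of the same S100 cluster as S100a5 and S100a6, was at -0.26 with overlapping groups (95% interval -0.67 to 0.16).

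Proteins that work with annexins and S100 proteins were measured by 14 genes, of which 10 were higher and 4 lower with miR-128, with a median of 0.08 and none past the adjusted or the unadjusted threshold in limma. Plat, the tissue plasminogen activator that the Anxa2 and S100a10 complex binds, read 11.74, 11.77 and 11.69 on the control arrays and 11.98, 11.93 and 11.91 on the miR-128 arrays. Its groups were apart, with a log2 fold change of 0.20 (95% interval -0.01 to 0.42), on the side opposite to Anxa2. Groups were apart for 2 of the 14, both higher, where 6.87% of all named genes were apart on that side. The other was the plasminogen activator Plau, at 0.16. Cacybp, the calcyclin-binding protein, had the highest control mean of the list, 11.99 ± 0.22, with a log2 fold change of 0.08. The largest difference of the list was 0.27 for Fpr1, followed by that of Plat. Fpr1 and the related formyl peptide receptor Fpr2, at -0.20, had overlapping groups and low values.

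Among 12 genes of calcium-dependent membrane repair 6 were higher and 6 lower, with a median of 0.00237 and none past either threshold in limma. Capns1, the small calpain subunit, and Pdcd6ip, the ESCRT adaptor ALIX, had the highest control means, 11.63 ± 0.12 and 11.01 ± 0.18. The largest differences were -0.22 for Cpne1, a calcium-dependent phospholipid-binding copine, and -0.20 for Pdcd6ip. Cpne1 was the 1 of 12 genes with groups apart, where 5.27% of all named genes were apart on the lower side. The ferlins Dysf and Myof, which act in the same process in muscle, lay below the table's median level, with log2 fold changes of 0.06 and -0.03.

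The rows of highest likeness to Anxa2 were sought over 6 arrays among named genes above the median level, by Pearson's r, as a description of a profile that the group difference and miR-Control replicate 3 shape together. The first 5 were Kif22, a mitotic kinesin, at r = 0.994, Chchd4, an import factor of the mitochondrial intermembrane space, at 0.992, Hk2, hexokinase, at 0.992, Thumpd1 at 0.991 and Hspa4, a chaperone, at 0.990. All 5 were lower with miR-128, with log2 fold changes from -0.58 to -0.32, and lower in miR-Control replicate 3 than in the other controls. Both traits follow from picking genes by their likeness to Anxa2 on these arrays, so nothing is read from them. S100a10 had r = 0.54 with Anxa2 and ranked 2800 of 10931, Anxa6 had 0.65 and Anxa5 -0.46.

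Marker genes were in keeping with the labelled cell type: 7 of 8 neural stem cell and radial glia genes lay above the table's median level. The same held for 0 of 7 microglial, 1 of 5 ependymal and 2 of 8 vascular and mesenchymal genes. Those 2 were Col1a1 and Col1a2, with control means of 8.15 and 7.74. Whether other cell types add to the annexin values was not tested. Astrocyte (3 of 6), neuron (2 of 6) and oligodendrocyte lineage (4 of 6) genes were in between. Since 10937 of all 20263 named genes lay above that level, nothing is read from the counts in between. The mean of the 6 oligodendrocyte lineage genes was 8.12 to 8.23 on the control arrays and 8.36 to 8.47 on the miR-128 arrays. It was thus higher with miR-128, as Anxa5 and S100b were, while Anxa2 was lower. Its part in those differences was not tested. The mean of the 8 stem cell genes was 10.53 to 10.64 and 10.45 to 10.54, that of the microglial genes 6.28 to 6.39 and 6.34 to 6.47, and that of the vascular genes 6.22 to 6.45 and 6.24 to 6.39, with overlap in each. In such bulk RNA fewer cells of a type and less RNA per cell cannot be told apart.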

How the data were processed

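Each array gave 1 deposited log2 expression value per RefSeq transcript. The authors' tools were RMA and affy, according to the submitters' processing notes, where no version is named. No source used here gives the genome build or the origin of the probe grouping. Accessions, stripped of their versions, were looked up in RefSeq's gene table (GRCm38.p6), which served for names alone. It named 25343 of 32025 rows and 20263 genes, among them all 10 genes described. A gene with several rows is given by the row of highest mean. Groups come from the sample titles. Group differences were tested in R 4.3.3 with limma 3.58.1 (lmFit and eBayes), two-sided, without pairing or a filter, over every row and all 6 arrays, with Benjamini-Hochberg adjustment. The procedure was tested on simulated data with independent noise, no deviant array and shifts larger than the difference of any of the 10 genes. That test therefore does not show how the procedure handles smaller differences or an array such as miR-Control replicate 3. The number of arrays limits the precision: the median SE of a log2 fold change was 0.13.

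The members and the gene lists were chosen with earlier results of these data known. Named are the 10 genes, the 2 genes of highest control mean and the 2 of largest difference of each related list, and the 5 genes most like Anxa2; of the cell type lists only counts and ranges are given, and a few S100, partner and membrane repair genes were added after their values were seen. Alternatives were quantile normalization, median centring, a filter on level, a replicate block, array weights, a variance trend, another row rule and leaving out each array.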

Additional observations from a re-analysis of the deposited data

How the results depend on the processing

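With all 6 arrays 5 of the 10 genes were higher with miR-128. The count was 3 after quantile normalization, 3 with arrays centred on their medians, and 2 of the 5 genes that remain when only rows above the median level are tested, a smaller set by construction. It ran from 3 to 6 when 1 array was left out, with 3 without miR-128 replicate 2, since most of these differences lie close to 0. The number of rows passing over the whole table, 0 in the reported fit, was 4 of 16012 with the filter on level and 24 with array weights; the cause was not tested. Anxa2 (13 of 13 alternatives), Anxa5 (13 of 13) and Anxa6 (13 of 13) kept their sign, while Anxa1 did in 9 of 13 and Anxa11 in 6 of 12. Part of each count was fixed in advance. The filter on level, the replicate block and the variance trend cannot change a gene's fold change, nor can the row rule where a gene has 1 distinct row. For Anxa2 and Anxa5, whose groups do not overlap, leaving out 1 array cannot turn the sign either. Median centring gave Anxa5 0.37 with a 95% interval of -0.02 to 0.75, and leaving out miR-128 replicate 1 gave 0.38 with an interval from -0.0028 to 0.77. The same replicate numbers in both groups correlated at -0.0028, 0.17 and 0.05 in their deviations from the group means. Unlike numbers correlated at -0.24 to 0.19. The labels state no pairing, and with so few arrays these values cannot decide whether there was one. With replicate number as a block 0 rows passed. The block leaves every fold change as it was, so the median of -0.02 and the 5 higher genes could not change. The median log2 fold change of the 10 genes ran from -0.07 with the filter on level to 0.02 without miR-128 replicate 3. That of the other annexin and S100 genes ran from 0.00499 without miR-Control replicate 2 to 0.11 without miR-Control replicate 3. No shift exceeded the spread between arrays, taken as the SD within groups of each array's median level over the list. As that is a spread of levels, it is a loose yardstick for a fold change. The depth of an array has no count, and no detection call was used, so it is unknown which of the low values lie above background.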
